A study of Homo sapiens with 16 samples.

Results

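The immunoglobulin heavy chain (IGH) locus was examined in chromatin immunoprecipitation sequencing data from DKO cells, a line derived from the colorectal carcinoma line HCT116 by disruption of the DNA methyltransferase genes DNMT1 and DNMT3B, and from the parental HCT116 cells. All regions on chromosome 14 of build hg19 with a start between 106030000 and 107290000 were taken, 698 of the 1255311 regions listed over 7 tables, 1 table per target. The 209 regions below 106330000 form the constant part (300 kb) and the other 489 form the variable part (960 kb). The locus was selected on its M values, the log2 ratios of DKO over HCT116 defined below, with earlier results of these data known, so these are given as a description with no test.

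The series held 16 samples, of which 14 were immunoprecipitated libraries and 2 were inputs, and the inputs were not used here. Each line had 1 library per target. The targets were the insulator protein CTCF, 2 subunits of cohesin (RAD21 and SMC1), acetylation of lysine 27 on histone H3 (H3K27Ac), and RNA polymerase II in its serine 5 (Pol2Ser5) and serine 2 (Pol2Ser2) phosphorylated forms and as total protein (TotalRNAPol2). The title of the TotalRNAPol2 libraries names total polymerase while their antibody label names Pol2Ser5, and the title was followed. Both lines carry the colon as their labelled tissue and were grown in the same medium, and DKO is a single line. No replicate check was possible at any value, so no difference below was measured against replicate error. In such bulk material, fewer cells that carry a mark and less of the mark in each cell cannot be told apart.

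The IGH locus encodes the heavy chain of antibodies. Developing B cells join a variable (V), a diversity (D) and a joining (J) segment by recombination, and the joined exon is transcribed with a constant segment that sets the antibody class. CTCF, a zinc finger protein that binds DNA, and cohesin, the ring-shaped complex that holds chromatin loops, occupy many places among the V segments and at the constant end in B cells, where looping brings distant V segments near the D and J segments. DNA methylation at a CTCF motif is known to reduce CTCF binding at part of its sites. H3K27Ac marks active promoters and enhancers, serine 5 phosphorylation marks polymerase near start sites, and serine 2 phosphorylation marks elongating polymerase.

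In the RefSeq gene table, built on another assembly and used here for names and order only, the locus lists 201 genes. From the constant end these begin with IGHA2, IGHE, IGHG4, IGHG2, IGHA1, IGHG1, IGHG3, IGHD and IGHM, the 9 constant segments with C region status, followed by 6 J segments, 27 D segments and 48 V segments. A further 79 entries are V segment pseudogenes. The V segments and the IGHG and IGHA genes are near copies of one another, and how reads that match several copies were treated is not given in the sources used here. Gene positions on hg19 were not used, so every region below is given by its position alone and the constant and variable parts are named by position.

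Values are given as reads in the counting window of a region (1 kb for CTCF, RAD21 and SMC1, 2 kb for the others) and as M, the log2 ratio of the normalized densities, DKO over HCT116. Regions past 2-fold are those with M of at least 1, counted as higher in DKO, and those with M of -1 or below, counted as higher in HCT116. The 95% interval given with a single M was computed by the exact Clopper-Pearson method on the reads of the pair of libraries and covers counting error only. The locus was taken to be silent in colon cells when it was chosen, and the sample labels do not say so. Polymerase was sparse there in HCT116. Reads reached at most 21 in any Pol2Ser5 region, 22 in any Pol2Ser2 region and 28 in any TotalRNAPol2 region. The authors called 119 of the 170 H3K27Ac regions in HCT116, a share close to that of the whole table (139241 of 195421). H3K27Ac reads in HCT116 reached 278. Marker genes of colon epithelium and of B cells were not checked, since gene positions on hg19 were not used.

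Relative to HCT116, DKO cells had more CTCF along the variable part and H3K27Ac at 7 short islands. Polymerase was called at few regions, mostly in DKO only, so these are listed through the line where they are high. Most of them had more signal in DKO, while 4 of the 29 Pol2Ser5 regions were higher in HCT116. H3K27Ac was mostly lower in DKO away from the 7 islands, which were drawn from its own values. Medians of M were lower for both cohesin subunits than for CTCF in both parts, although each table was normalized separately. The medians of M in the constant and variable part were 0.73 and 1.37 (CTCF), -0.15 and 0.65 (RAD21), and 0.36 and 0.63 (SMC1). For H3K27Ac they were -0.23 and -0.40. In the polymerase tables they were 1.81 and 2.32 (Pol2Ser5), 3.17 and 2.25 (Pol2Ser2), and 2.44 and 2.40 (TotalRNAPol2). Over all regions of each table the median lay between -0.05 for H3K27Ac and 0.27 for TotalRNAPol2.

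**Figure D1:**
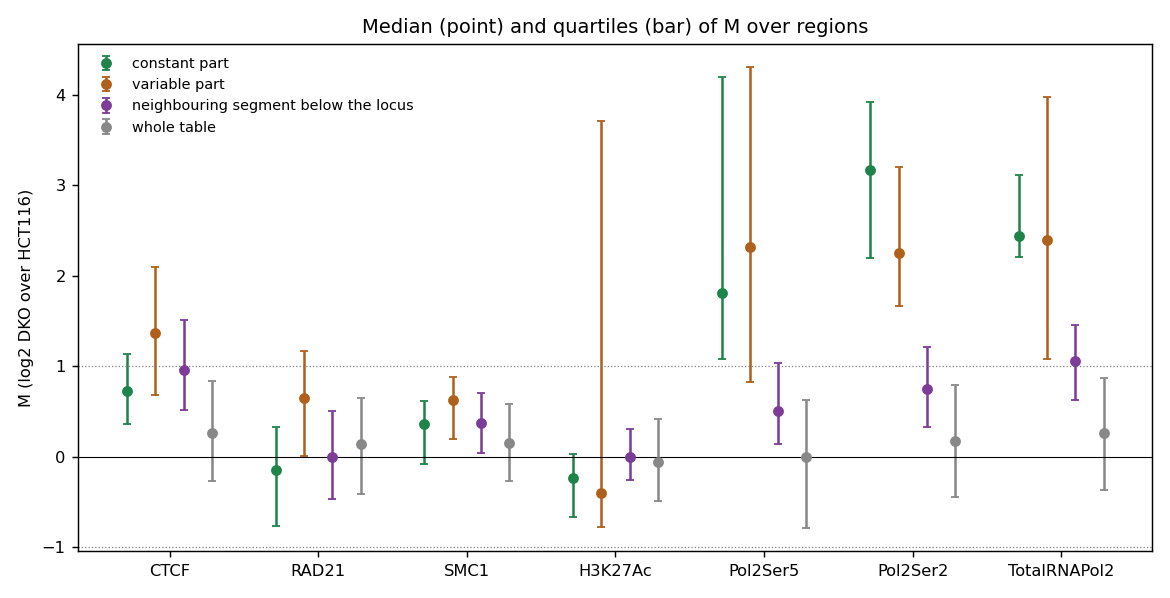
Median (point) and quartiles (bar) of M, log2 DKO over HCT116, over the regions of each target in the constant part, the variable part, the neighbouring segment below the locus and the whole table. The polymerase medians of both parts of the locus lie above 1.5 while the whole-table medians lie near 0, and the upper quartile of H3K27Ac in the variable part reaches 3.71 above a negative median.

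Medians above those of the rest of the chromosome were also found past the locus. Copy number at this end of chromosome 14 in either line was not analysed here. In the neighbouring 1.26 Mb just below it, the median of M was 0.96 for CTCF, 0.51 for Pol2Ser5, 0.75 for Pol2Ser2 and 1.05 for TotalRNAPol2, against 0.30, -0.02, 0.19 and 0.26 over the rest of chromosome 14 outside the locus. The CTCF median of the constant part was below that of the neighbouring segment and the CTCF median of the variable part was above it. The neighbouring median was 0.38 for SMC1 and close to 0 for RAD21 and H3K27Ac. The lower bound falls within the tables rather than at a change in the data. The CTCF region just inside the lower bound had 38 reads in DKO, against 20 in HCT116 (M 0.68), and the CTCF region just outside it had 18 and 8 reads (M 0.77). The TotalRNAPol2 region just inside had 35 and 7 reads (M 2.55), and the one just outside had 110 and 8 reads (M 3.72). No table lists a region above the upper bound.

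**Figure D2:**
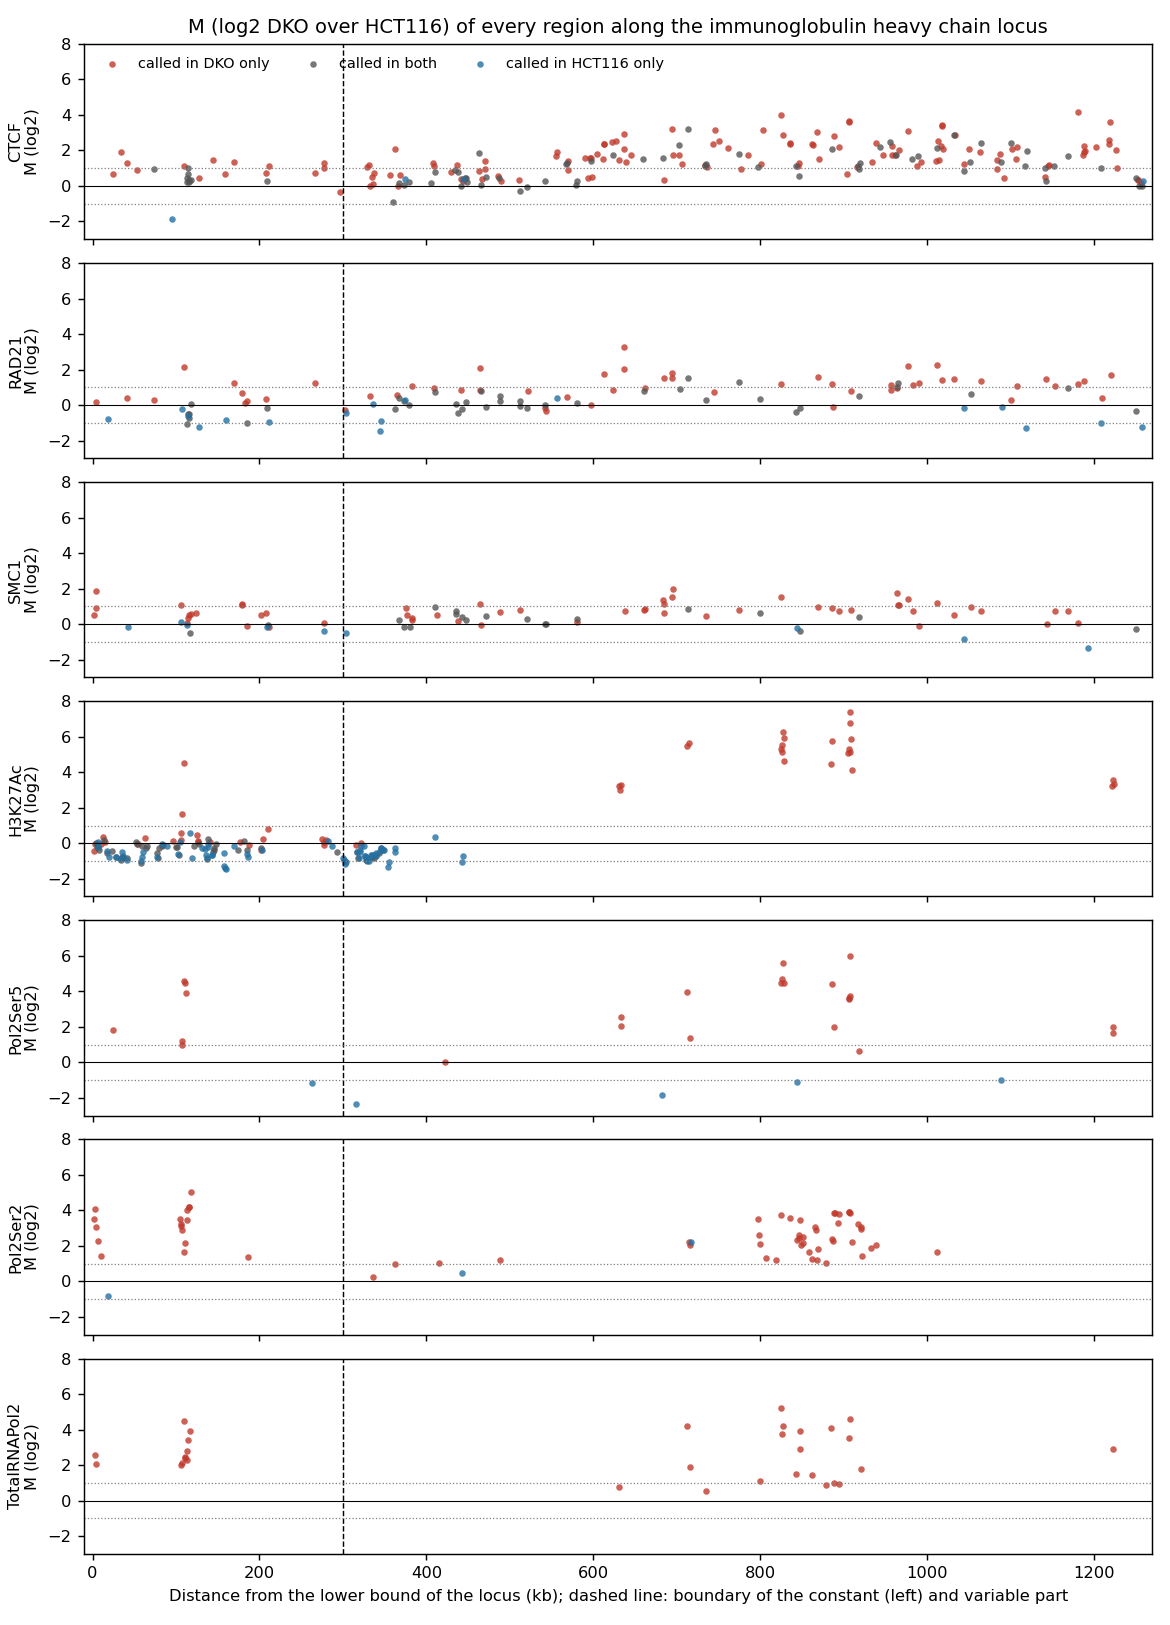
M, log2 DKO over HCT116, of each of the 698 regions against distance from the lower bound in kb, with 1 panel per target. Colours give the line in which the authors called the region, dotted lines mark M of 1 and -1, and the dashed line separates the constant part (left) from the variable part. CTCF points climb towards the right, and H3K27Ac points split into a broad band below 0 on the left and a few narrow stacks above 3 on the right.

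CTCF, the DNA-binding factor that anchors many chromatin loops, gave the most regions in the locus, 208, of which 25 lay in the constant part and 183 in the variable part. M was 1 or more at 133 of them (63.9%), against a background of 20.1% of all CTCF regions in the table, and -1 or less at 1 region, against 6.33%. The share higher in DKO was 9 of 25 in the constant part and 124 of 183 in the variable part. In the neighbouring segment it was 48.8%. The median CTCF region of the locus had 55.5 reads in DKO and 19 in HCT116, while the median over the whole table was 55 and 36 reads. In DKO the locus ranked at the middle of its table, at a median percentile of 50.8, and in HCT116 at percentile 17.0. Of the 208 regions, 134 were listed through a call in DKO only (against 41.3% over the whole table). A low rank in HCT116 is thus partly set by the listing.

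The CTCF difference was not even along the variable part. In steps of 100 kb from the lower bound, the first 6 steps had medians of M between 0.38 and 1.07, and steps 7 to 12 had medians between 1.72 and 2.33. The last step, which holds the end of the locus, had a median of 0.73. Above position 106630000, a line drawn after these values were seen, 107 of 125 CTCF regions were higher in DKO and 124 were above 0, with medians of 60 reads in DKO and 15 in HCT116. Below that position 26 of 83 were higher in DKO, with medians of 53 and 27 reads. The part of the variable segment next to the boundary was therefore closer to the constant part than to the rest of the variable part in its CTCF values.

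The CTCF region with the highest M was chr14:107210593-107211614, with 198 reads in DKO, against 9 in HCT116 (M 4.16, interval 3.35 to 5.46). It stood at percentile 88.1 of its table in DKO and at percentile 2.62 in HCT116. The lowest M was at chr14:106124925-106125175 in the constant part, with 7 reads in DKO, against 23 in HCT116 (M -1.89, interval -3.48 to -0.75). This was the only CTCF region of the locus past 2-fold in that direction, and it rests on few reads.

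The single densest CTCF region of each part differed little between the lines. At chr14:106409716-106412984, the region of the variable part with the highest mean density, CTCF had 540 reads in DKO, against 525 in HCT116 (M 0.21, interval 0.03 to 0.39). RAD21 at the same site had 427 and 423 reads (M 0.03), and SMC1 had 321 and 283 reads (M -0.18). All 3 stood above percentile 98 of their tables in both lines. The densest CTCF region of the constant part, chr14:106239259-106240971, had 212 reads in DKO, against 179 in HCT116 (M 0.28, interval -0.01 to 0.58), and RAD21 there had 127 and 122 reads (M -0.15). Other dense CTCF regions did differ. Of the 10 with the highest mean density in the locus, a set drawn after the values were seen, all lay in the variable part and were called in both lines, and 4 were higher in DKO, with M from -0.05 to 1.25. The highest M among these was at chr14:106764933-106766508, with 411 reads in DKO, against 183 in HCT116.

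The authors called 70 of the 208 CTCF regions (33.7%) in both lines, 134 in DKO only and 4 in HCT116 only, against 43.6% in both and 41.3% in DKO only over the whole table. Among the 70 called in both, 35 were higher in DKO. The matching share among regions called in both lines was not counted over the whole table.

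Cohesin, which CTCF halts on DNA to set the ends of loops, was measured by its subunits RAD21, the link that closes the ring, and SMC1, 1 of its paired arms. RAD21 had 111 regions in the locus, with medians of 41 reads in DKO and 21 in HCT116. Of these, 32 were higher in DKO (28.8%, against a background of 13.7%) and 7 were higher in HCT116 (6.31%, against 8.70%). SMC1 had 85 regions, with medians of 45 and 24 reads, and 15 were higher in DKO (17.6%, against 9.36%) and 1 in HCT116 (1.18%, against 4.67%). With the median M of the rest of chromosome 14 taken off, these counts were 24 and 10 for RAD21 and 8 and 2 for SMC1. Of the RAD21 regions 55 of 111 were called in DKO only (against 37.5% over the whole table). Of the SMC1 regions 56 of 85 were (against 43.2%). Among regions called in both lines, 4 of 39 RAD21 and 0 of 20 SMC1 regions were higher in DKO. The matching shares over the whole tables were not counted. In the constant part RAD21 was higher at 3 of 23 regions in each line, and the median of -0.15 changed sign when M was centred with a single factor (0.05). In the variable part 29 of 88 RAD21 regions and 11 of 62 SMC1 regions were higher in DKO.

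Regions of different targets that shared at least 1 bp were merged into 376 sites. At 53 of them CTCF, RAD21 and SMC1 all had a region, 9 in the constant part and 44 in the variable part. Over the 44 variable sites the median of M was 1.14 for CTCF, 0.78 for RAD21 and 0.60 for SMC1, and over the 9 constant sites it was 0.36, -0.53 and 0.05. CTCF had the highest M of the 3 at 40 of the 53 sites, all 3 were above 0 at 32, and all 3 were 1 or more at 6. These counts were not made over the whole tables, where the median M was 0.26 for CTCF, 0.14 for RAD21 and 0.16 for SMC1. Each table has its own scale, so the order of the 3 is not shown to be particular to the locus.

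**Figure D3:**
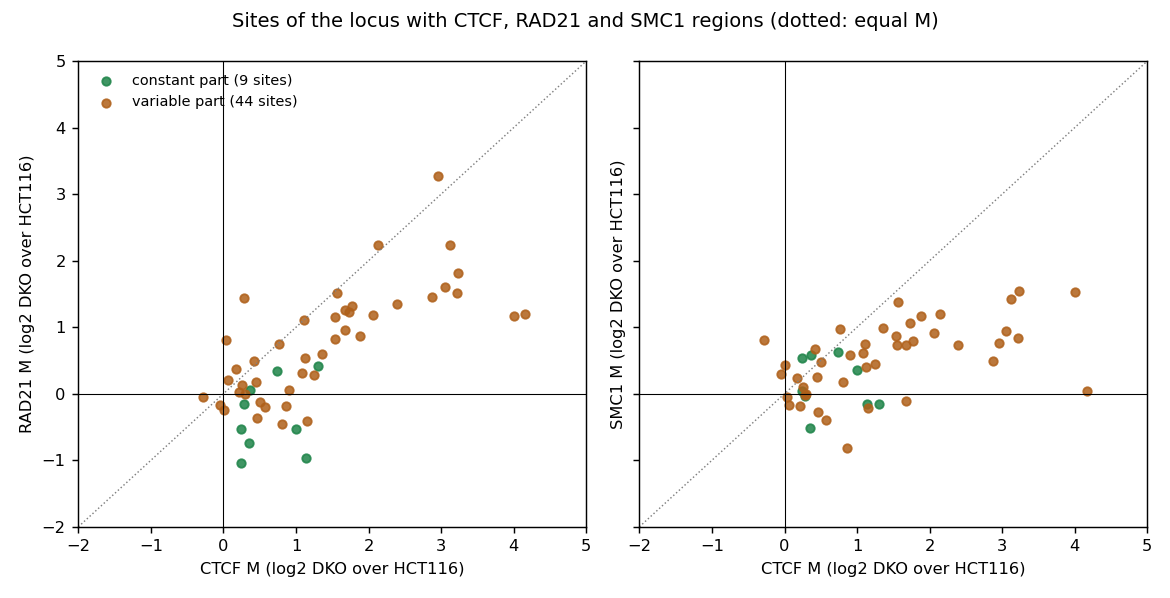
M of RAD21 (left) and SMC1 (right) against M of CTCF at the 53 sites of the locus with regions of all 3 targets, log2 DKO over HCT116, coloured by part. The dotted line marks equal M. Most points lie to the right of 0 and under the dotted line, since CTCF had the highest M at 40 of 53 sites, and the 9 constant sites lie nearer to 0.

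The sites with the largest mean M over these 3 targets were all in the variable part. At chr14:106666699-106668279 CTCF had 167 reads in DKO, against 19 in HCT116 (M 2.95), RAD21 had 82 and 5 reads (M 3.27) and SMC1 had 43 and 20 reads (M 0.77). This was also the RAD21 region with the highest M of the locus, with an interval of 2.23 to 5.17. At chr14:107006903-107007746 CTCF had 152 reads in DKO, against 15 in HCT116 (M 3.12), RAD21 had 88 and 13 (M 2.23) and SMC1 had 79 and 23 (M 1.43). At both sites no H3K27Ac or polymerase region was listed.

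At chr14:106724192-106725882 CTCF had 311 reads in DKO, against 31 in HCT116 (M 3.24), RAD21 had 120 and 26 reads (M 1.81), and SMC1 had regions with M of 1.54 and 1.95. At chr14:107041249-107043126 CTCF had 378 and 87 reads (M 2.14), RAD21 had 100 and 15 reads (M 2.24) and SMC1 had 67 and 23 reads (M 1.19). Both sites were among the 6 where all 3 targets were past 2-fold. A contrasting case was the region of highest CTCF M, chr14:107210593-107211614, where RAD21 had 33 and 9 reads (M 1.21) and SMC1 had 28 and 22 reads (M 0.04).

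Of the 208 CTCF regions, 85 (40.9%) overlapped at least 1 cohesin subunit, against 64.3% of CTCF regions over the whole table, and 54 (26.0%) overlapped both, against 44.7%. Of the 133 that were higher in DKO, 51 (38.3%) overlapped at least 1 subunit, against 61.9% of such regions over the whole table, and 28 (21.1%) overlapped both, against 38.4%. At 7 of these 28 (25.0%, against 32.4% over the whole table) both subunits were higher in DKO too. Regions of H3K27Ac or polymerase lay on 49 of the 208 CTCF regions (23.6%), against 49.5% over the whole table, and on 31 of the 183 in the variable part. These overlaps depend on what the authors called in each table, and a missing region is not a measured absence.

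H3K27Ac had 170 regions in the locus, 102 in the 300 kb constant part and 68 in the 960 kb variable part. That is 34.0 regions per 100 kb in the constant part and 7.08 in the variable part, while CTCF had 8.33 and 19.1. M was 1 or more at 25 H3K27Ac regions (14.7%, against a background of 11.0%) and -1 or less at 10 (5.88%, against 10.4%). With constant centring, a single factor for all regions, these counts were 25 and 18 of the 170. The backgrounds with that centring were 10.16% and 11.63%, so regions higher in HCT116 were then near their background. The counts over the whole locus hide a split by position.

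Below 106630000 there were 147 H3K27Ac regions, of which 118 had M below 0 and 29 above 0, against 46.7% above 0 over the whole table. These regions had a median M of -0.39, and 2 were higher in DKO (against a background of 11.0%). Their median reads were 59 in DKO and 91 in HCT116. In the 70 kb above the boundary, H3K27Ac was listed at 42 regions, 41 of them with M below 0. Reads there ran from 24 to 99 in DKO, with a median of 66, and from 71 to 197 in HCT116, with a median of 118. The median M was -0.66, and 28 of the 42 were called in HCT116 only, against 77226 of 195421 over the whole table. Of the 42, 5 were higher in HCT116 (against 10.4%). The densest of them, chr14:106348558-106349103, had 97 reads in DKO, against 197 in HCT116 (M -0.82, interval -1.19 to -0.47). In the constant part the densest H3K27Ac region, chr14:106083207-106083869, had 187 and 219 reads (M -0.06, interval -0.35 to 0.22).

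Between 106480000 and 106660000 no H3K27Ac, Pol2Ser5 or TotalRNAPol2 region was listed, while 35 CTCF regions were, 18 of them higher in DKO and 0 higher in HCT116. Above 106630000 the order of the lines turned round. All 23 H3K27Ac regions there were called in DKO only (against 28.7% over the whole table). All were higher in DKO (against 11.0%), with a median M of 5.13. Reads ran from 56 to 411 in DKO and from 1 to 13 in HCT116, and the medians were 108 and 4. Regions called in DKO only are listed through the line where they are high, so these ranges are a description.

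**Figure D4:**
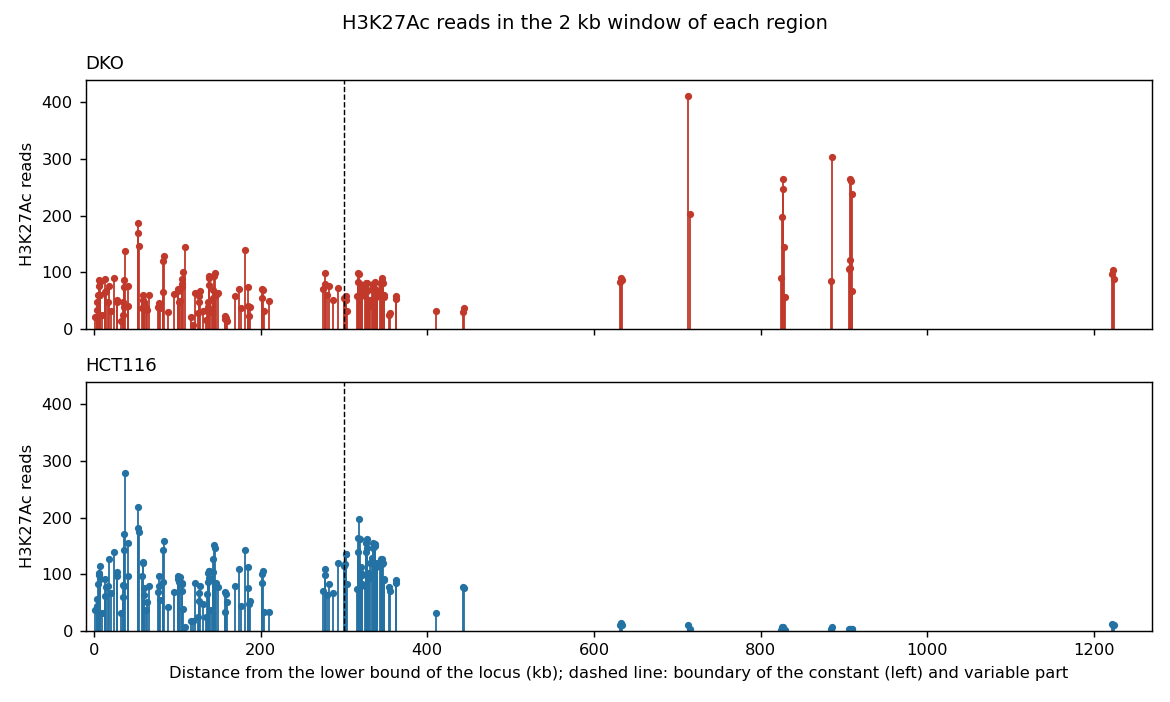
H3K27Ac reads in the 2 kb window of each of the 170 regions, DKO above and HCT116 below, against distance from the lower bound in kb. HCT116 has a dense band up to about 450 kb and at most 13 reads beyond, while DKO has a lower band on the left and isolated stacks of up to 411 reads on the right.

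The 25 H3K27Ac regions higher in DKO fell into 7 islands when regions within 10 kb of each other were joined, 1 in the constant part and 6 in the variable part. The islands were drawn after the values were seen, from the H3K27Ac values themselves, so their H3K27Ac is a description. They were 1.70 to 4.34 kb long, and the densest region of an island is the one with the highest mean density over both lines.

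The constant island, chr14:106136698-106140094, had 2 H3K27Ac regions. The one with the higher mean density over both lines had 101 reads in DKO, against 38 in HCT116 (M 1.65, interval 1.12 to 2.25). The other, chr14:106139253-106140094, had 144 and 7 reads (M 4.50, interval 3.60 to 6.02). The outer variable islands were of middle height: chr14:106660802-106663646 had 90 and 13 reads (M 3.01) and chr14:107252065-107253769 had 97 and 12 reads (M 3.23) at their densest H3K27Ac regions. The 4 variable islands between them had more DKO reads and fewer HCT116 reads at their densest regions.

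Of these 4, chr14:106742623-106744925 had the densest acetylation of the 7 islands, with 411 reads in DKO, against 10 in HCT116 (M 5.49, interval 4.73 to 6.69), at percentile 96.1 of all H3K27Ac regions in DKO. The densest regions of the other three had 264 and 6 reads (M 5.54) in chr14:106854661-106858999, 304 and 6 reads (M 5.74) in chr14:106914847-106917222, and 238 and 4 reads (M 5.90) in chr14:106935759-106939893. The highest M of any target in the locus was in the last of these, at chr14:106938125-106938811, with 261 reads in DKO, against 1 in HCT116 (M 7.39). With a single read in HCT116 its interval ran from 5.89 to 13.69.

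**Figure D5:**
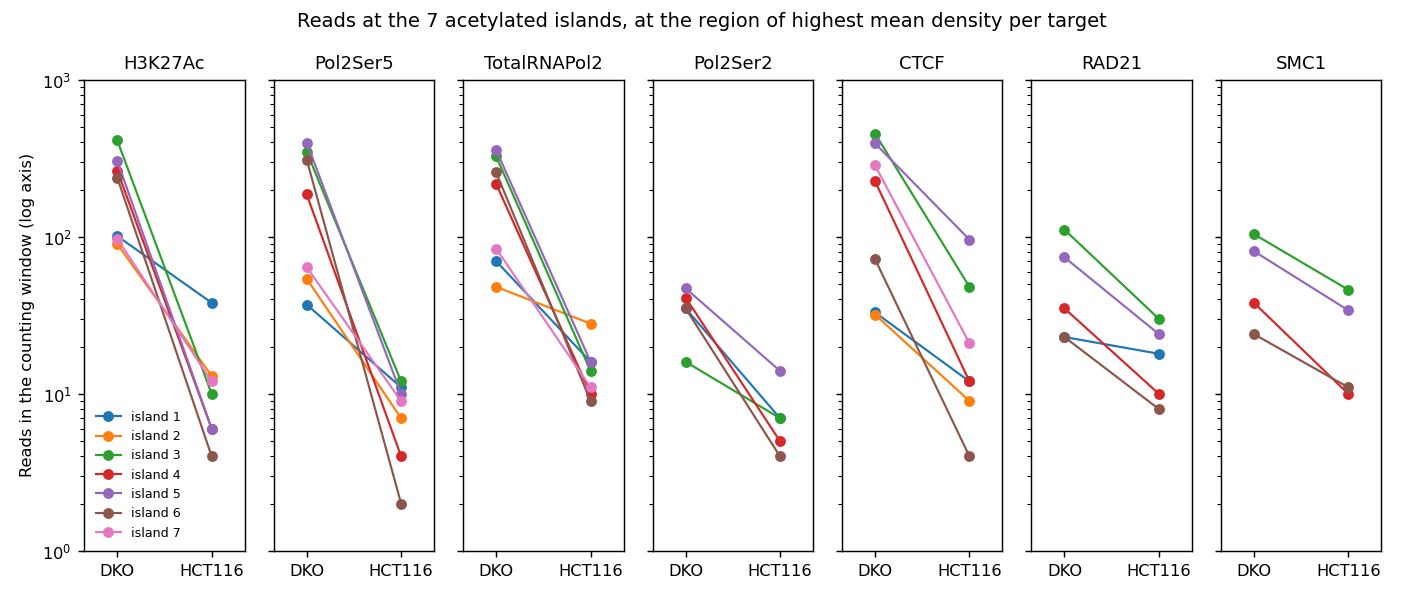
Reads in the counting window at the 7 acetylated islands, DKO left and HCT116 right in each panel, on a log axis, taken at the region of highest mean density per island and target. Islands are numbered 1 to 7 from the lower bound, and missing points are islands with no region of that target. Every pair of points has more reads in DKO, although M of RAD21 at island 1 is -0.20. At the densest acetylated island, number 3, H3K27Ac, Pol2Ser5 and TotalRNAPol2 have 411, 348 and 325 reads in DKO and 10, 12 and 14 in HCT116, while TotalRNAPol2 at island 2 has 48 and 28.

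Polymerase with serine 5 phosphorylation was found mainly at the same islands. Pol2Ser5 had 29 regions in the locus, 7 in the constant and 22 in the variable part, with medians of 54 reads in DKO and 7 in HCT116. M was 1 or more at 21 of them (72.4%, against a background of 14.9%) and -1 or less at 4 (13.8%, against 21.0%). Of the 21 higher in DKO, 20 lay within 2 kb of an island. Of the 8 regions away from the islands, 1 was higher in DKO and 4 were higher in HCT116, the lowest M being -2.33 at chr14:106346030-106346209 with 6 reads in DKO and 21 in HCT116. Without the regions near the islands the variable median was -1.04 over 6 regions, against 2.32 with them.

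The Pol2Ser5 region with the highest M was chr14:106938115-106938826, on the island region of highest acetylation ratio, with 310 reads in DKO, against 2 in HCT116 (M 5.97, interval 4.68 to 9.60). The densest by mean density was chr14:106742817-106744549, with 348 and 12 reads (M 3.98, interval 3.27 to 5.06). TotalRNAPol2 at this island had 325 and 14 reads (M 4.17), and Pol2Ser2 had 16 and 7 reads (M 2.20). In DKO reads, the elongating form was thus the sparsest of the 3 polymerase libraries there, although each table has its own scale.

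TotalRNAPol2 had 31 regions in the locus, all called in DKO only, with medians of 65 reads in DKO and 13 in HCT116. In every one M was above 0, against 61.4% over the whole table. Of the 31, 27 were higher in DKO (87.1%, against a background of 20.7%) and 0 higher in HCT116 (against 10.2%). The background covers regions called in either line, while these 31 were listed only through the line where they are high. The lowest was chr14:106765182-106765414, with 35 and 26 reads (M 0.51, interval -0.25 to 1.32). The highest was chr14:106854672-106855416, with 124 and 3 reads (M 5.22, interval 4.04 to 7.92). Unlike the Pol2Ser5 calls, 12 of its 27 regions higher in DKO lay away from the islands.

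Pol2Ser2 had 64 regions, 18 in the constant and 46 in the variable part, and 60 were higher in DKO (93.8%, against a background of 18.6%) and 0 higher in HCT116 (against 10.9%). The reads behind them were few, with medians of 22 in DKO and 7 in HCT116 and a highest value of 57 in DKO. At the median region of the locus, the authors' normalization raised the log2 ratio of reads by 1.06, so part of M in this table comes from the scaling. When M was centred with 1 factor for all regions, the variable median was 1.80 in place of 2.25. The densest Pol2Ser2 region of the variable part was chr14:106745518-106746333, with 45 reads in DKO, against 17 in HCT116 (M 2.03, interval 1.25 to 2.98). Of the 60 regions higher in DKO, 43 lay more than 2 kb from any island.

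None of the 29 Pol2Ser5, 64 Pol2Ser2 or 31 TotalRNAPol2 regions was called in both lines by the authors, against 20.1%, 18.3% and 20.2% of regions over the whole tables. They were called in DKO only at 24 (82.8%, against 46.0%), 61 (95.3%, against 49.8%) and all 31 (against 55.4%), and in HCT116 only at 5, 3 and 0. The polymerase shares higher in DKO given above are thus set beside backgrounds with a smaller share of regions called in DKO only. At 2 of the 3 Pol2Ser2 regions called in HCT116 only, M was above 0, so a call in 1 line is not the same as more signal there.

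The polymerase regions were gathered in a few stretches, whose limits were set after the values were seen. In the constant part, 14 kb from 106135000 to 106149000 held 11 of its 18 Pol2Ser2 regions, all higher in DKO, with 9 to 47 reads in DKO and 0 to 12 in HCT116. It also held 9 of its 11 TotalRNAPol2 regions, all higher in DKO, with 28 to 90 reads in DKO and 2 to 20 in HCT116, and 5 Pol2Ser5 regions with 29 to 75 and 1 to 11 reads. All of these polymerase regions were called in DKO only, so they are listed through the line where they are high. Their ranges of reads are thus a description, and for Pol2Ser2 the lowest DKO value, 9, lay under the highest HCT116 value, 12.

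CTCF and cohesin did not follow polymerase in that stretch. All 8 CTCF regions there had M above 0 but 2 passed 2-fold, with medians of 75.5 reads in DKO and 50 in HCT116. The 8 RAD21 regions had a median M of -0.53 and the 8 SMC1 regions a median of 0.24. At chr14:106146145-106146701, a site with regions of 6 targets, TotalRNAPol2 had 28 reads in DKO, against 2 in HCT116 (M 3.92) and Pol2Ser2 had 33 and 3 reads (M 4.20). There CTCF had 131 and 100 reads (M 0.36), RAD21 had 76 and 106 reads (M -0.74) and SMC1 had 46 and 53 reads (M -0.51).

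In the variable part, 137 kb from 106826000 to 106963000 held 36 of the 46 Pol2Ser2 regions, all higher in DKO, with medians of 24 reads in DKO and 8 in HCT116. The same stretch held 15 TotalRNAPol2 regions, 13 higher in DKO, and 12 Pol2Ser5 regions, 10 higher in DKO. It also contained 3 of the 7 islands and 15 H3K27Ac regions, with reads of 56 to 304 in DKO and 1 to 6 in HCT116. Of its 25 CTCF regions 22 were higher in DKO, with medians of 72 and 15 reads. Of its 9 RAD21 regions 3 were higher in DKO, and of its 9 SMC1 regions 1 was.

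At 3 sites, all of them on islands of the variable part, every target had a region. At chr14:106742623-106744925 CTCF had 454 reads in DKO, against 48 in HCT116 (M 3.22, interval 2.81 to 3.71), RAD21 had 111 and 30 (M 1.51), and SMC1 had 104 and 46 (M 0.84). At the site beginning at 106915260, CTCF had 393 and 96 reads (M 2.06), RAD21 had 74 and 24 (M 1.18), SMC1 had 81 and 34 (M 0.91), and Pol2Ser5 had 398 and 10 (M 4.41). At chr14:106854661-106855416, CTCF had 226 and 12 reads (M 4.00), RAD21 had 35 and 10 (M 1.16), SMC1 had 38 and 10 (M 1.53), and H3K27Ac had 90 and 2 (M 5.30). At all 3 sites the order of M was polymerase with serine 5 phosphorylation and H3K27Ac above CTCF, and CTCF above both cohesin subunits.

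Not every CTCF region under polymerase was on an island. At chr14:106872800-106874652, CTCF had 306 reads in DKO, against 142 in HCT116 (M 1.15) and Pol2Ser2 had 22 and 8 reads (M 2.36). No H3K27Ac region was listed there, Pol2Ser5 had 15 and 20 reads (M -1.09), and RAD21 (33 and 32 reads, M -0.41) and SMC1 (33 and 31 reads, M -0.22) were below 0.

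The CTCF difference was not limited to the islands. Of the 133 CTCF regions higher in DKO, 10 lay within 2 kb of an island and 123 lay elsewhere. Elsewhere, 190 of 197 CTCF regions had M above 0, with a median of 1.24 and median reads of 55 in DKO and 20 in HCT116. All 25 H3K27Ac regions higher in DKO lay at the islands by construction. The 142 H3K27Ac regions elsewhere had a median M of -0.43, with 58.5 reads in DKO and 92 in HCT116. Leaving out every region with M of 1 or more lowers this median, so it cannot be set against the CTCF median.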

How the data were processed

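The submitters' processing notes name BWA and build hg19 for all targets, and MACS2 for all but TotalRNAPol2. Their versions and the peak thresholds are not stated. Each table lists regions called in either line. The authors deposited the read signal of each line as a normalized density, M as the log2 ratio of the densities and A as their mean log2 density, per the file headers. A p-value per region is also deposited and was not used here.

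Reads were recovered from M and A with Python 3.11.15, NumPy 2.4.6, pandas 2.3.3 and SciPy 1.17.1, taking 1 read as added to each count. All recovered values were whole within 0.05, and the step was tested on simulated data. The authors' scaling of Pol2Ser2 and TotalRNAPol2 depended on density (slopes of 0.33 and 0.32 on A). Depth is given as reads per window, since whole library sizes were not used. Each table was normalized separately, and the centring hides a change shared by all regions called in both lines. Neighbouring regions can share a window.

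Regions, bounds, parts and lists were chosen with earlier results of these data known. Regions named are, in each table, the highest and lowest M among those with 20 or more reads in the higher library and the highest A in each part, the 8 sites with the largest mean M of CTCF, RAD21 and SMC1 together, and the 6 fullest sites. Those named for the islands, bounds and stretches were chosen after their values were seen. The motif search, gene assignment and marker check planned for an hg19 reference were not made here. Figures were drawn with matplotlib 3.10.9.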

Additional observations from a re-analysis of the deposited data

How the results depend on the processing

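Of the recomputed values, 164 stayed within the order-statistic interval of the median or within 1.5 times the count, 47 moved and 1 reversed. The intervals are wide where regions are few: the constant RAD21 median of -0.15 became 0.05 with constant centring and 0.06 with 1 region per window, and the constant Pol2Ser5 median of 1.81 became 0.32 over 2 regions away from the islands. Restricted to regions called in both lines, the medians of M were 0.36 and 1.10 for CTCF in the constant and variable part, 0.23 for RAD21 and -0.72 for H3K27Ac in the variable part, and -0.27 and 0.30 for SMC1. Higher in DKO and HCT116 there were 35 and 0 of 70 CTCF, 4 and 2 of 39 RAD21, 0 and 0 of 20 SMC1, and 0 and 1 of 51 H3K27Ac regions. No polymerase region of the locus was called in both lines, so that setting gave no value for them. At 4-fold there were 53 and 0 CTCF, 6 and 0 RAD21 and 0 and 0 SMC1 regions, with 0 H3K27Ac and 1 Pol2Ser5 regions higher in HCT116. With 20 or more reads, Pol2Ser2 had 35 of 36 higher in DKO, and Pol2Ser5 had 2 of 25 and SMC1 0 of 84 higher in HCT116. With 1 region per window the counts higher in DKO were 8 of 74 for H3K27Ac, 11 of 19 for Pol2Ser5 and 35 of 39 for Pol2Ser2. In that setting 3 H3K27Ac regions were higher in HCT116. Counts fall in these settings partly because regions are dropped.

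With M recentred on the whole table (CTCF shifted by -0.26, RAD21 by -0.14, SMC1 by -0.16, Pol2Ser2 by -0.17, TotalRNAPol2 by -0.27), the variable CTCF median was 1.10, SMC1 had 9 regions higher in DKO, and CTCF had 2 and Pol2Ser2 had 1 higher in HCT116. Relative to the rest of chromosome 14 these were 1.07, 8, 2 and 1, and SMC1 had 2 higher in HCT116. With constant centring (shifts of -0.24 for Pol2Ser2 and -0.29 for TotalRNAPol2) the medians were 1.80 for variable Pol2Ser2 and 1.75 for constant TotalRNAPol2. Regions higher in HCT116 then numbered 4 of 111 for RAD21, 18 of 170 for H3K27Ac and 1 of 64 for Pol2Ser2. Over the whole tables the shares with that centring were 6.37%, 11.63% and 18.28%. Without regions near the islands, an alternative chosen after seeing the data, the variable medians were -0.67 for H3K27Ac and -1.04 for Pol2Ser5, which reversed. Higher in DKO were then 0 of 142 H3K27Ac, 1 of 8 Pol2Ser5 and 12 of 15 TotalRNAPol2 regions. The H3K27Ac values of this setting are partly fixed, since the islands were drawn from them. The cause of these changes was not tested. No paired analysis was possible because each line had 1 library per target and the labels carry no replicate numbers. Depth limits the polymerase values most, since HCT116 had a median of 7 reads per Pol2Ser5 and Pol2Ser2 region.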
